A study of Mus musculus with 107 samples.

Results

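Cyp7a1, Cyp8b1, Cyp27a1 and Cyp7b1, the cytochrome P450 enzymes that commit cholesterol to bile acids in the liver, were followed across an F2 mouse population. They were chosen by gene symbol, as the probes annotated to these enzymes, and make 4 of the 12315 genes measured on at least 90% of the arrays, with 1 probe each. All 4 passed that filter. The mice were F2 females from C57BL/6J and DBA/2J, both inbred strains, so each carried its own mixture of the parental genomes. All were on an atherogenic diet, so no mouse on another diet was available for comparison, and no label states an age. RNA of each liver was compared on a 2-colour array with a common pool made from equal RNA portions of the mice. Of 107 arrays, 3 held no usable values, which left 104 mice as 1 group. Each value below is a log2 ratio, read as mouse over pool, and describes a mouse relative to the population and not an absolute level.

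Bile acids are made from cholesterol in hepatocytes and are the main route by which cholesterol leaves the body. In the classical pathway Cyp7a1 catalyses the first and rate-limiting hydroxylation, and Cyp8b1 adds the hydroxyl group that directs the product to cholic acid. In the alternative pathway Cyp27a1 hydroxylates the sterol side chain in mitochondria, and Cyp7b1 hydroxylates the resulting oxysterols. Bile acids returning to the liver activate the receptor FXR (Nr1h4), which induces the repressor SHP (Nr0b2), and FGF signals from the gut act through Fgfr4 and its partner Klb. SHP lowers Cyp7a1 and Cyp8b1 by blocking the activators LRH-1 (Nr5a2) and HNF4-alpha (Hnf4a).

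In the RefSeq annotation of GRCm38.p6, Cyp7a1 (gene ID 13122) lay on chromosome 4 from 6265612 to 6275632 and Cyp8b1 (13124) on chromosome 9 from 121914356 to 121916305. Cyp27a1 (104086) lay on chromosome 1 from 74713148 to 74737897, and Cyp7b1 (13123) on chromosome 3 from 18071944 to 18243890. Where each probe lies within its gene was not given. The 250 bases before the start are shown for Cyp8b1, an enzyme that SHP represses, and for Nr0b2, because their relation is described below. Cyp8b1 is shown at chr9:121916306-121916555 on the minus strand and Nr0b2 at chr4:133553126-133553375 on the plus strand, from RefSeq on GRCm38.p6. Capitals mark an HNF4A-type motif or a TATA box.
Cyp8b1: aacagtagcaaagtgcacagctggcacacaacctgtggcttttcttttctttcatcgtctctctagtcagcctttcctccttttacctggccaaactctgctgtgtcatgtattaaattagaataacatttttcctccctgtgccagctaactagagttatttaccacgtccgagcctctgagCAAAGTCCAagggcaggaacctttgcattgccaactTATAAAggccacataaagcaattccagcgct
Nr0b2: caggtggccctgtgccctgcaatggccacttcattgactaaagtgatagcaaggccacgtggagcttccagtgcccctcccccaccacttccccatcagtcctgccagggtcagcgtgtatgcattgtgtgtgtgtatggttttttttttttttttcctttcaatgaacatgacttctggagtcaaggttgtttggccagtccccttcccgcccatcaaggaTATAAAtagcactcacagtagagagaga
The HNF4A-type letters CAAAGTCCA began 67 bases before the Cyp8b1 start, and were found in 0.384% of 32851 windows of this length, searched on both strands. TATAAA began 31 bases before the Cyp8b1 start and 28 bases before the Nr0b2 start, and was in 12.4% of the windows. The searched NR5A2-type letters (TCAAGGTCA or CCAAGGTCA, together in 0.846% of windows) and the FXR-type inverted repeat (in 0.00609%) had no match in these sequences. These are matches of letters and not measured binding.

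Cyp7a1 had the widest spread of the enzymes. It was lowest in mouse 92 at -4.51, had a median of -0.19 and was highest in mouse 64 at 2.32 (log2 ratio, SD 1.33, n = 101 mice). It was more than 2-fold above the pool in 18 mice and more than 2-fold below it in 25. Between the 5th and 95th percentiles of mice it ranged 18.2-fold, the range ranked 64 among all 12315 genes, whose median range was 1.94-fold. In 3 further mice, 68, 71 and 101, Cyp7a1 was at the lower limit of the scale and was treated as not measured, so the low end of its range is a bound.

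Cyp8b1 spread less than Cyp7a1, around a narrow centre with long tails. It was lowest in mouse 104 at -3.20, had a median of -0.39 and was highest in mouse 87 at 2.55 (log2 ratio, SD 0.79, n = 104). The middle 50% of mice lay within 1.43-fold of each other while the 5th and 95th percentiles lay 5.37-fold apart, giving an excess kurtosis of 3.69. It was above the pool in 25 mice and below it in 79. Mice 71 and 68, at the lower limit for Cyp7a1, were also the next lowest for Cyp8b1 after mouse 104, at -2.42 and -2.33.

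Of the alternative enzymes, Cyp27a1 was the steadiest of the 4 and Cyp7b1 spread almost as widely as Cyp8b1. Cyp27a1 was lowest in mouse 20 at -1.41, had a median of -0.06 and was highest in mouse 64 at 0.65 (log2 ratio, SD 0.35, n = 104), a 2.22-fold range that ranked 4544 among all genes. Its SD was close to the median SD over all genes of 0.34. Cyp7b1 was also lowest in mouse 20, at -2.09, had a median of -0.09 and was highest in mouse 17 at 1.31 (log2 ratio, SD 0.68, n = 104), a 4.62-fold range.

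**Figure D1:**
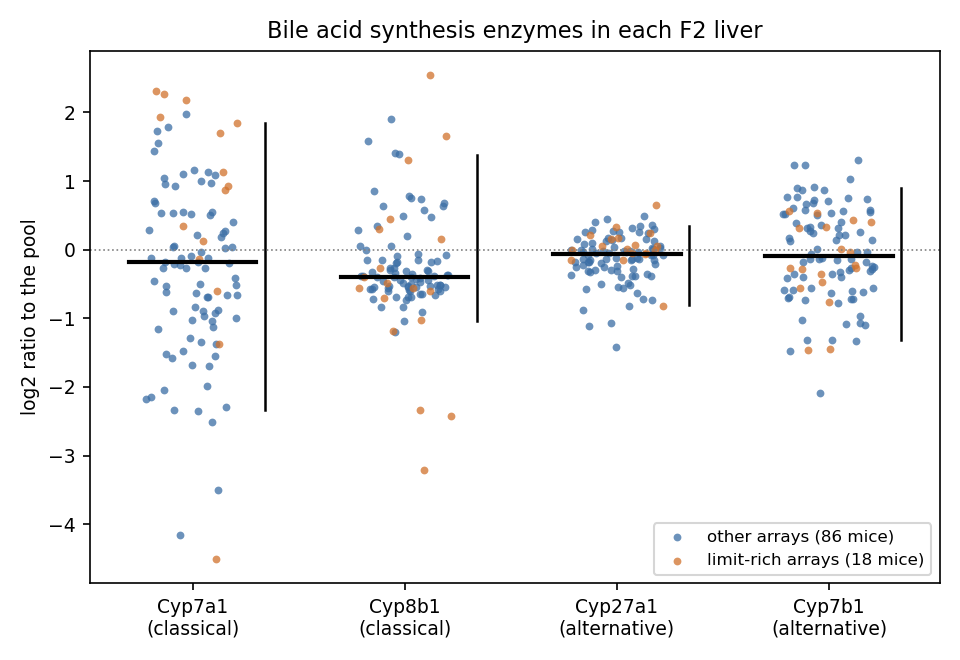
Log2 ratio to the pool (y axis) of each enzyme in every mouse, with 1 point a mouse, a horizontal line at the median and a vertical line from the 5th to the 95th percentile. Orange points are the 18 mice on arrays rich in values at the limits of the scale. Cyp7a1 runs from -4.51 to 2.32, whereas Cyp27a1 stays between -1.41 and 0.65.

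Arrays differed in how many values reached the limits of the scale, and the classical enzymes spread more on those with many. On 18 arrays over 700 values were at these limits, and such arrays are called limit-rich here. No label or file header names a batch, and these arrays were set apart by this count alone, so what they share was not tested. The SD on the 18 limit-rich arrays and the 86 others was 1.80 and 1.18 for Cyp7a1 (15 limit-rich arrays measured) and 1.42 and 0.59 for Cyp8b1. It was 0.29 and 0.36 for Cyp27a1 and 0.60 and 0.70 for Cyp7b1. The lowest and highest Cyp8b1 values, and the 3 highest and the lowest of Cyp7a1, came from limit-rich arrays. Over the 86 other arrays Cyp7a1 still had the largest SD of the 4.

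The 4 enzymes tended to be high or low in the same mice, but loosely. Of 101 mice with all 4 values, 10 had every enzyme above the pool and 30 had none above it, while 22 had 1, 25 had 2 and 14 had 3. Mouse 64 was high for all, at 2.32 for Cyp7a1, 1.65 for Cyp8b1, 0.65 for Cyp27a1 and 0.56 for Cyp7b1. Mouse 20 was below the pool for all, at -1.55 for Cyp7a1, -0.51 for Cyp8b1, -1.41 for Cyp27a1 and -2.09 for Cyp7b1. Other mice were split. Mouse 104, the lowest for Cyp8b1 at -3.20, had Cyp7a1 at 0.13 and Cyp7b1 at 0.40. Mouse 92, the lowest for Cyp7a1, had Cyp27a1 at -0.05.

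Within the classical pathway Cyp7a1 and Cyp8b1 correlated moderately over 101 mice, with Pearson r = 0.410 (permutation p = 6e-05) and Spearman rho = 0.458. The adjusted p from limma, fitted over all genes, was 0.000566. The r was 0.402 on the limit-rich arrays and 0.430 on the others. Even so, the difference of the 2 log ratios had an SD of 1.23, close to the SD of Cyp7a1 itself. In the plot of enzyme pairs, most Cyp8b1 values stayed in a narrow band where Cyp7a1 was below the pool, and the high Cyp8b1 values came with Cyp7a1 near or above the pool.

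Within the alternative pathway Cyp27a1 and Cyp7b1 had r = 0.396 (permutation p = 3e-05, n = 104), rho = 0.264 and an adjusted p of 0.000151 from limma. Without the 2 mice farthest from the Cyp27a1 median r was 0.284, so part of it rested on these mice.

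Across the pathways the closest pair was Cyp7a1 with Cyp27a1, at r = 0.464 (permutation p = 1e-05, the smallest that 100000 permutations can give), rho = 0.451 and limma adjusted p = 8.24e-05. Cyp7a1 with Cyp7b1 gave r = 0.405 (permutation p = 5e-05), rho = 0.390 and limma adjusted p = 0.000656. Its r was 0.0413 on 15 limit-rich arrays and 0.523 on the 86 others, a difference that was not tested. Cyp8b1 with Cyp7b1 gave r = 0.385 (permutation p = 7e-05), rho = 0.460 and limma adjusted p = 0.000843. Cyp8b1 with Cyp27a1 was the weakest of the 6 pairs and did not pass the limma fit, with r = 0.194 (permutation p = 0.0497), rho = 0.172 (permutation p = 0.0814) and adjusted p = 0.115. Its r was 0.638 on the limit-rich arrays and 0.0932 on the others. The r within the classical (0.410) and the alternative (0.396) pathway thus lay inside the range of the pairs across pathways. The differences between these r values were not tested.

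**Figure D2:**
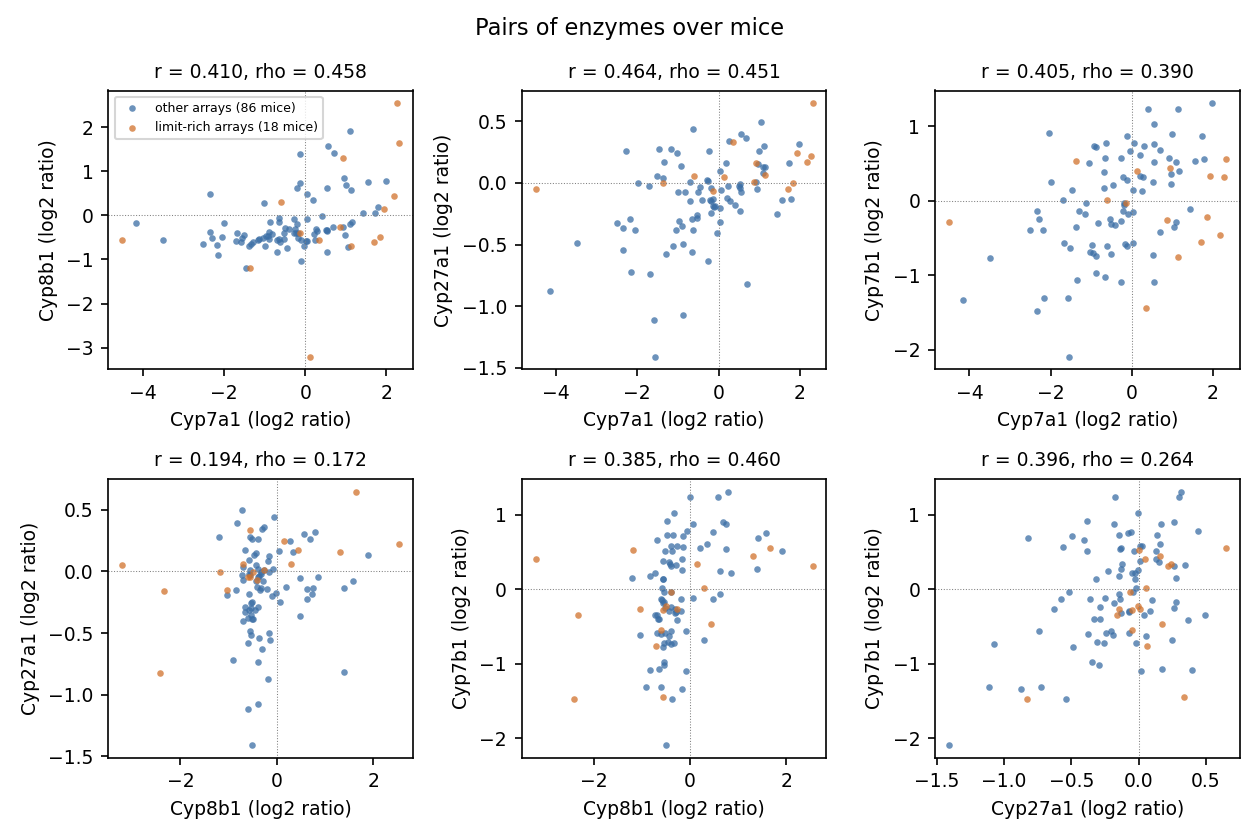
Log2 ratios of each pair of enzymes, with 1 point a mouse and limit-rich arrays in orange; r is Pearson's and rho Spearman's. The r values run from 0.194 for Cyp8b1 with Cyp27a1 to 0.464 for Cyp7a1 with Cyp27a1.

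A large part of the liver transcriptome moved together in these mice, and the enzymes moved with it to unequal degrees. The first principal component of all genes held 19.5% of the variance. Its correlation with the enzymes was 0.382 for Cyp7a1, 0.435 for Cyp8b1, 0.535 for Cyp27a1 and 0.686 for Cyp7b1 (a description, with the sign of the component set arbitrarily). With this component removed from every gene, r was 0.313 for Cyp7a1 with Cyp8b1 (limma adjusted p = 0.0299) and 0.337 for Cyp7a1 with Cyp27a1 (adjusted p = 0.0199). Cyp7a1 with Cyp7b1 (0.216, adjusted p = 0.151), Cyp8b1 with Cyp7b1 (0.132, adjusted p = 0.45) and Cyp27a1 with Cyp7b1 (0.0475, adjusted p = 0.78) no longer passed.

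The transcripts that correlate with each enzyme were found with limma, over all genes, at an adjusted p under 0.05. The share of genes called was 26.8% for Cyp7a1, 29.7% for Cyp8b1, 44.6% for Cyp27a1 and 47.5% for Cyp7b1, so a call on its own says little. Of 12311 genes, 1423 were called with the same sign for all 4 enzymes, 45 with opposite signs for any pair, and 4021 for none. Called for 1 enzyme alone were 349 genes for Cyp7a1, 633 for Cyp8b1, 962 for Cyp27a1 and 915 for Cyp7b1. Among genes within 20 Mb of each enzyme, which an F2 mouse tends to inherit with it, 23.2% of 56 were called for Cyp7a1, 31% of 184 for Cyp8b1, 44.5% of 209 for Cyp27a1 and 52.3% of 86 for Cyp7b1, near the shares over all genes.

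Most of the enzymes that complete bile acid synthesis correlated with each of the 4. With the classical ones this did not hold once the other enzymes or the first component were taken into account. With Cyp7b1 it did not hold once the first component was removed. Of 9 later enzymes measured, 6 correlated positively with Cyp7a1, 6 with Cyp8b1, 8 with Cyp27a1 and 6 with Cyp7b1, where 15.7%, 15.4%, 24.8% and 24.8% of all genes did. The median r of the list was 0.380 for Cyp7a1, 0.294 for Cyp8b1, 0.518 for Cyp27a1 and 0.598 for Cyp7b1, against medians over all genes between 0.0167 and 0.0319. Hsd3b7, which carries out the next step on the sterol ring in both pathways, ran from -2.54 through a median of 0.04 to 1.01 over mice (log2 ratio). Its r was 0.422 with Cyp7a1, 0.435 with Cyp8b1, 0.528 with Cyp27a1 and 0.713 with Cyp7b1. Slc27a5 and Baat, which activate bile acids and join them to taurine or glycine, correlated with all 4 as well. Slc27a5 had r = 0.443 with Cyp7a1, 0.294 with Cyp8b1, 0.684 with Cyp27a1 and 0.649 with Cyp7b1. Amacr, a peroxisomal racemase of the side chain, and the peroxisomal enzyme Hsd17b4 had their largest r with Cyp7b1, at 0.641 and 0.607. Cyp39a1, an oxysterol hydroxylase, was called with Cyp27a1 only (r = 0.337, limma adjusted p = 0.00162). With Cyp7b1 it had r = -0.191 (adjusted p = 0.0943).

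At fixed levels of the other 3 enzymes, in 1 fit with all 4, 8 of the 9 later enzymes were called positively with Cyp27a1 and 6 with Cyp7b1, beside 16.2% and 15.7% of all genes. With Cyp7b1, 1 later enzyme was called negatively, beside 1988 of 12311 genes. In that fit none was called with Cyp7a1 or Cyp8b1, beside 0.877% and 4.12% of all genes called positively. At an unadjusted p under 0.05, 1 had a negative slope on Cyp7a1 and 3 a positive one on Cyp8b1. That threshold took in 1124 and 1751 of 12311 genes in these directions. After removal of the first component, 5 of the 9 later enzymes were called positively with Cyp27a1, beside 14% of all genes, led by Slc27a5 at r = 0.516. For Cyp7b1, 1 of 9 was called, Hsd3b7 at r = 0.401, beside 3.95% of all genes. For Cyp7a1 the 1 later enzyme called was Scp2, a sterol carrier and thiolase. Its r was negative, at -0.295 (limma adjusted p = 0.0427, beside 2.53% of all genes called negatively). No later enzyme was called positively with Cyp7a1, beside 4.32% of all genes. At an unadjusted p under 0.05, 3 later enzymes were positive with it, beside 1625 of 12314 genes. None was called with Cyp8b1, nor at an unadjusted p under 0.05, beside 2.65% of all genes called positively and 3.78% negatively.

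Transporters of bile acids and phospholipids were called with the alternative enzymes in larger numbers, as were genes in general. Of 7 measured, 2 correlated positively with Cyp7a1, 3 with Cyp8b1, 6 with Cyp27a1 and 5 with Cyp7b1, where 15.7%, 15.4%, 24.8% and 24.8% of all genes did. With the first component removed, these counts were 0, 0, 1 and 1, beside 4.32%, 2.65%, 14% and 3.95% of all genes. In that setting 1 was negative with each classical enzyme, beside 2.53% of all genes for Cyp7a1 and 3.78% for Cyp8b1. Before that removal the importers Slc10a1 and Slco1b2 correlated positively with all 4, and Slco1b2 reached r = 0.723 with Cyp7b1. The slope of Slc10a1 on Cyp7b1 changed sign with the first component removed (-0.076 log2 per SD, not called). Slco1b2 was then called with Cyp7b1 (r = 0.391, adjusted p = 0.00482) but not with Cyp7a1 (r = 0.0232, adjusted p = 0.911), Cyp8b1 (r = -0.129, adjusted p = 0.464) or Cyp27a1 (r = 0.148, adjusted p = 0.286). Abcb11, the pump that secretes bile salts into the canaliculus, ran from -3.43 through a median of -0.12 to 0.65 over mice (log2 ratio). It had r = 0.0397 with Cyp7a1 (limma adjusted p = 0.796) and 0.000169 with Cyp8b1 (adjusted p = 0.999). With Cyp27a1 it had r = 0.452 (adjusted p = 1.02e-05) and with Cyp7b1 r = 0.404 (adjusted p = 8.6e-05). Without the 2 mice farthest from the enzyme's median these were 0.350 and 0.344. These calls depended on the processing. With the first component removed r was 0.150 with Cyp27a1 (adjusted p = 0.275) and -0.099 with Cyp7b1 (adjusted p = 0.593), neither past the threshold, while Abcb11 was then called negatively with Cyp7a1 (r = -0.305, adjusted p = 0.0353) and Cyp8b1 (r = -0.432, adjusted p = 0.00111). With each array divided by its SD the call with Cyp7b1 was lost too (r = 0.116, adjusted p = 0.365).

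**Figure D3:**
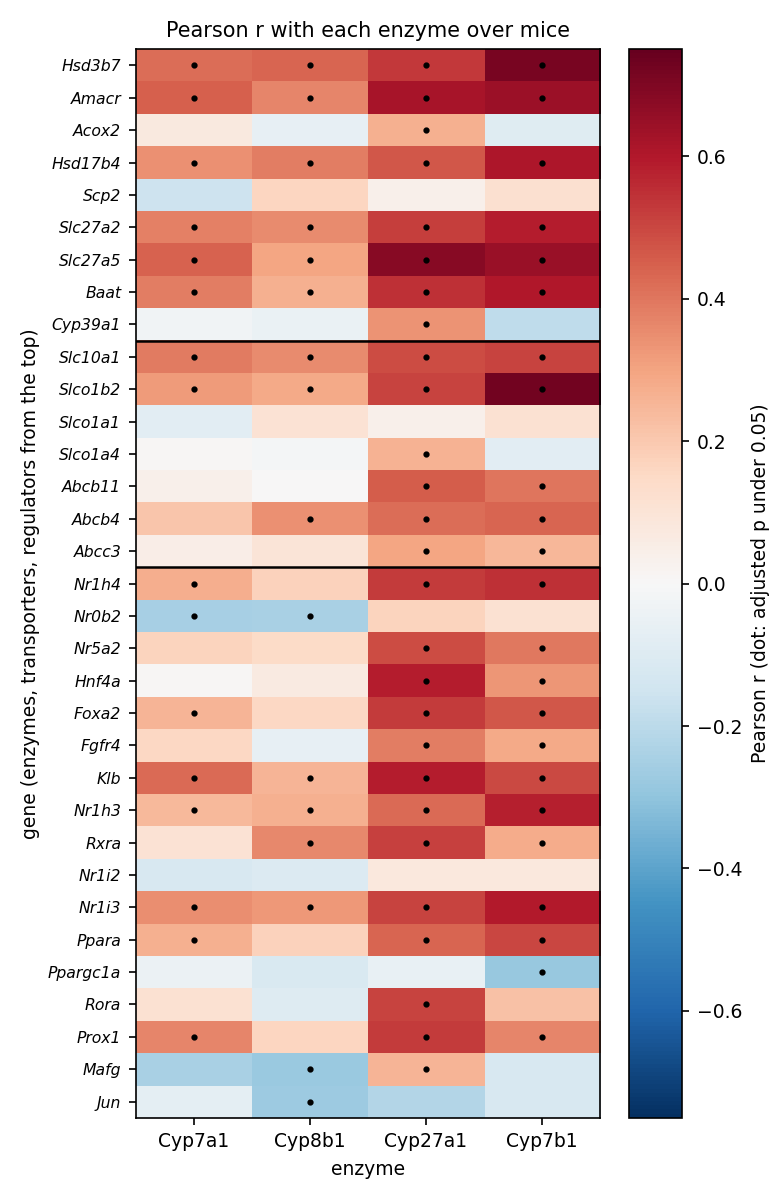
Pearson r over mice (colour) of each later enzyme, transporter and regulator (rows, in that order from the top) with each enzyme (columns); a dot marks an adjusted p under 0.05 in the limma fit. The columns of Cyp27a1 and Cyp7b1 are mostly red, while Nr0b2 is blue for Cyp7a1 (-0.249) and Cyp8b1 (-0.243).

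The regulators of bile acid synthesis had a median r of 0.153 with Cyp7a1, 0.145 with Cyp8b1, 0.488 with Cyp27a1 and 0.331 with Cyp7b1. Of 17 measured, 7 correlated positively and 1 negatively with Cyp7a1, and 4 positively and 3 negatively with Cyp8b1. With Cyp27a1, 13 correlated positively, and with Cyp7b1, 11 positively and 1 negatively. Over all genes 15.7%, 15.4%, 24.8% and 24.8% were called positively and 11.1%, 14.3%, 19.9% and 22.7% negatively with Cyp7a1, Cyp8b1, Cyp27a1 and Cyp7b1, so the counts for Cyp8b1 were near the share over all genes. On the 86 other arrays alone, 1 regulator was positive and 1 negative with Cyp8b1, beside 10.1% and 11.1% of all genes. With the first component removed, 6 of the 17 were called positively with Cyp27a1, beside 14% of all genes. None was then called positively with Cyp7a1, Cyp8b1 or Cyp7b1 (1, 0 and 1 at an unadjusted p under 0.05). Negative calls were 3 with Cyp7a1, 6 with Cyp8b1 and 2 with Cyp7b1, beside 2.53%, 3.78% and 323 of 12314 genes. Hnf4a, a nuclear receptor that activates many hepatocyte genes, had r = 0.00875 with Cyp7a1, 0.0669 with Cyp8b1, 0.591 with Cyp27a1 and 0.331 with Cyp7b1. Its own range over mice was small, at 1.64-fold. Nr1h4, the bile acid receptor FXR, had r = 0.274 with Cyp7a1, 0.171 with Cyp8b1 (adjusted p = 0.169), 0.523 with Cyp27a1 and 0.550 with Cyp7b1. Klb, the co-receptor for gut FGF, was called with all 4, at r = 0.424 with Cyp7a1, 0.253 with Cyp8b1, 0.587 with Cyp27a1 and 0.494 with Cyp7b1. The negative regulators for Cyp8b1 were Nr0b2, Mafg (r = -0.278), a repressor of bile acid genes, and Jun (r = -0.274), a stress-activated transcription factor. On the 86 other arrays r was -0.394 for Mafg and -0.156 for Jun.

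Nr0b2, which encodes SHP, was called with both classical enzymes, negatively, and with neither alternative one when all arrays were used. It ran from -2.45 in mouse 26 through a median of 0.08 to 1.17 (log2 ratio, SD 0.61, n = 104). It correlated negatively with Cyp7a1, at r = -0.249 (permutation p = 0.0118), rho = -0.270 and limma adjusted p = 0.0439, and with Cyp8b1, at r = -0.243 (permutation p = 0.0136) and adjusted p = 0.0426. The rank correlation with Cyp8b1 was -0.146 (permutation p = 0.14), so that relation rested on the more extreme mice. With Cyp27a1 r was 0.170 (adjusted p = 0.149) and with Cyp7b1 0.113 (adjusted p = 0.351). Both negative relations missed the threshold on the 86 other arrays alone, with r = -0.171 (adjusted p = 0.211) for Cyp7a1 and -0.173 (adjusted p = 0.234) for Cyp8b1. On those arrays Nr0b2 was called with Cyp27a1 instead, positively, at r = 0.287 (adjusted p = 0.0182). Both also missed it without the 2 mice farthest from the enzyme's median (adjusted p = 0.0789 and 0.0911). With the first component removed they were larger, at r = -0.482 for Cyp7a1 (adjusted p = 0.000172) and -0.475 for Cyp8b1 (adjusted p = 0.000147).

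**Figure D4:**
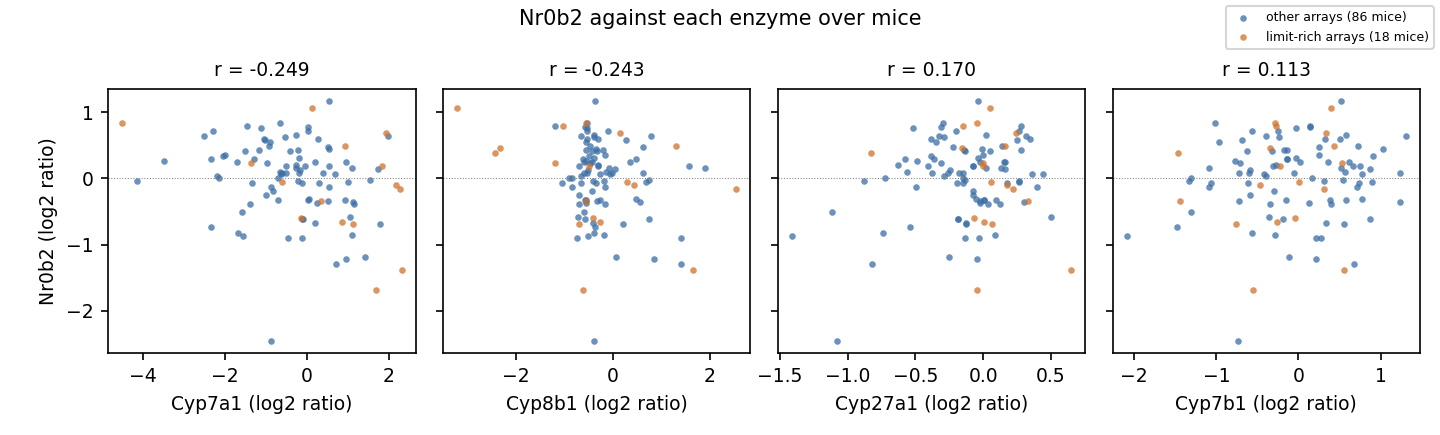
Nr0b2 log2 ratio (y axis) against each enzyme's log2 ratio (x axis), with 1 point a mouse and limit-rich arrays in orange. The 3 mice with the lowest Cyp8b1 sit above 0 for Nr0b2 (1.06, 0.39 and 0.46), and 1 mouse at -2.45 lies apart from the rest.

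The difference between the pathways was tested directly in 1 limma fit that held all 4 enzymes, as the mean slope on Cyp7a1 and Cyp8b1 minus the mean slope on Cyp27a1 and Cyp7b1 (log2 per SD of enzyme, n = 101). It was called for 23.6% of genes, 11.1% toward the classical and 12.5% toward the alternative enzymes. Of the listed genes, 6 of 9 later enzymes, 4 of 7 transporters and 13 of 17 regulators were called, all toward the alternative enzymes. For Nr0b2 the difference was -0.36 ± 0.07 (SE, adjusted p = 1.71e-05), and it passed on the 86 other arrays too (-0.33 ± 0.07, adjusted p = 0.000368). For Hnf4a it was -0.19 ± 0.03 (adjusted p = 9.8e-08), for Abcb11 -0.40 ± 0.06 (adjusted p = 2.14e-06), for Slco1b2 -0.47 ± 0.08 (adjusted p = 2.04e-06) and for Slc27a5 -0.31 ± 0.05 (adjusted p = 5.37e-06). With the first component removed, 1 of 9 later enzymes, 2 of 7 transporters and 4 of 17 regulators were called, beside 6.66% of all genes, and Hnf4a, Abcb11 and Nr0b2 were among the genes that passed.

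In the same joint fit, where each slope is at fixed levels of the other 3 enzymes, 1.42% of genes were called for Cyp7a1, 6.86% for Cyp8b1, 28.2% for Cyp27a1 and 31.9% for Cyp7b1. The listed regulators called for Cyp7a1 were Nr0b2 (slope -0.26 ± 0.07 SE, adjusted p = 0.0299) and Hnf4a (-0.11 ± 0.03, adjusted p = 0.0132), both negative, beside 0.544% of all genes. For Cyp8b1 the 1 regulator called was the retinoid receptor Rxra, with a positive slope (adjusted p = 0.0108), beside 4.12% of all genes. For Cyp27a1, 14 of 17 were called positively, beside 16.2% of all genes.

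**Figure D5:**
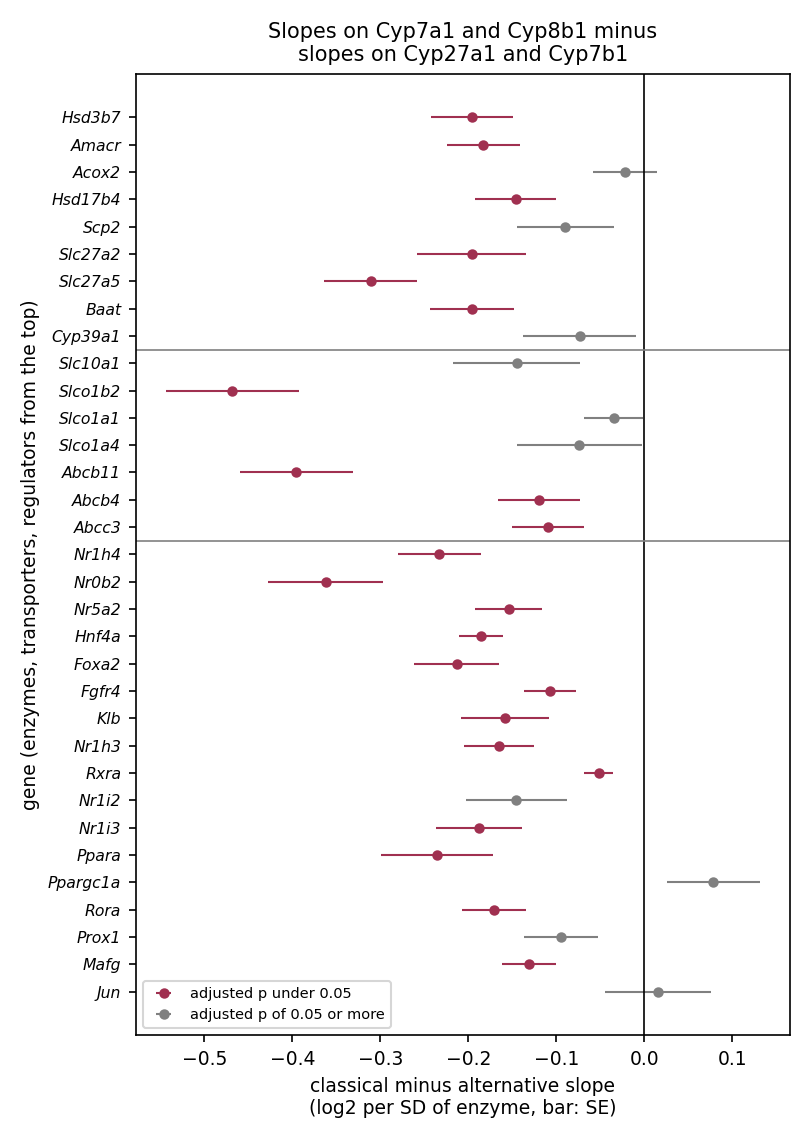
Mean slope on Cyp7a1 and Cyp8b1 minus mean slope on Cyp27a1 and Cyp7b1 (x axis, log2 per SD of enzyme, bars SE) for each measured later enzyme, transporter and regulator. All called genes (red) lie left of 0, with Slco1b2 at -0.47, Abcb11 at -0.40 and Nr0b2 at -0.36.

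Over the whole array, the genes that separated the pathways most significantly toward the classical side were Ctdnep1, Fam118a, 5530401J07Rik, Bzw2 and Matr3, with differences between 0.15 for Ctdnep1 and 0.33 for Matr3. Ctdnep1, a nuclear envelope phosphatase, had r = -0.165 with Cyp7a1, -0.153 with Cyp8b1, -0.554 with Cyp27a1 and -0.604 with Cyp7b1. Toward the alternative side they were Prr16, Rbpms2, the glucuronosyltransferase Ugt2b1 (-0.50 ± 0.07 SE), the P450 Cyp2c38 (-0.39 ± 0.05) and Gclc (-0.41 ± 0.06), a subunit of the first enzyme of glutathione synthesis.

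The closest partners of each enzyme were listed by r, and some had a larger absolute r with another enzyme. For Cyp7a1 the closest were 3021401C12Rik (r = 0.606, rho = 0.610), 2610528J11Rik, Tstd3, Trappc12, Ndufaf3 and the tight junction gene Cldn2 (r = 0.569). Tstd3 lay within 20 Mb of Cyp7a1 on chromosome 4. The most negative were Tmem141 (r = -0.549), the endoplasmic reticulum protein Erp29, the kinase gene Map4k4 and Gnrh1. Erp29 and Map4k4 had a larger absolute r with both alternative enzymes. Map4k4 had r = -0.496 with Cyp7a1 and -0.670 with Cyp7b1. All 10 partners were still called with the first component removed. Cyp17a1, a steroid hydroxylase of the female-biased list, had r = 0.518 with Cyp7a1, 0.420 with Cyp8b1, 0.389 with Cyp27a1 and 0.192 with Cyp7b1 (adjusted p = 0.0908).

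For Cyp8b1 the positive partners were Vwa8, Usp50, Diablo, Fam189a1, 1700028M03Rik and Mogat1, a monoacylglycerol acyltransferase (r = 0.525, and 0.627 with Cyp7b1). Some had a larger r on the limit-rich arrays, a difference that was not tested: Vwa8 had r = 0.831 on the limit-rich arrays and 0.234 on the other 86, and 1700028M03Rik had 0.675 and 0.295. Of the negative partners, Ppl, a desmosomal plaque protein, had r = -0.608 and the glutathione transferase Gstm3 r = -0.551, and on the 86 other arrays Ppl had -0.578 and Gstm3 -0.530. Gstm3 itself ranged 26.2-fold over mice.

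For Cyp27a1 the positive partners were the ubiquitin ligase Rnf103 (r = 0.761), the trafficking genes Snx9 and Hgs, liver glycogen phosphorylase Pygl, the plasma protein Apoh and Psme4. The negative partners were Arhgef6 (r = -0.741), the methyltransferase Prmt1, Snhg16 and the ribosomal protein Rpl12. For Cyp7b1 they were the sulfotransferase Sult2a8 (r = 0.785), Nat8f2, Mtfr1, the carboxylesterase Ces3a (r = 0.745), Rnf123 and the growth hormone receptor Ghr (r = 0.734), and on the negative side Cbx6, Numbl, Myo1c and Zfp61. Sult2a8 ranged 41.5-fold over mice, and Mtfr1 lay within 20 Mb of Cyp7b1 on chromosome 3. Of these 10, Numbl was the 1 that was not called with the first component removed (r = -0.259, adjusted p = 0.0826).

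Genes of several other liver programmes correlated with the enzymes, beside 15.7% of all genes called positively with Cyp7a1, 15.4% with Cyp8b1 and 24.8% with each alternative enzyme. Of 10 targets of the fatty acid receptor PPAR alpha, 8 correlated positively with Cyp7a1, 9 with Cyp8b1, 9 with Cyp27a1 and 9 with Cyp7b1, with Cpt2, a mitochondrial carnitine acyltransferase, at r = 0.418 for Cyp7a1. Most of these calls were lost with the first component removed: 1 of 10 was called positively with Cyp7a1 and 2 with Cyp27a1, beside 4.32% and 14% of all genes, and none with Cyp8b1 or Cyp7b1 (1 and 2 at an unadjusted p under 0.05). Of 10 lipogenic genes, 4 correlated positively with Cyp7a1, 3 with Cyp8b1, 9 with Cyp27a1 and 8 with Cyp7b1. With the first component removed, these counts were 0, 1, 2 and 0, beside 4.32%, 2.65%, 14% and 3.95% of all genes. In that setting 3 lipogenic genes were called negatively with Cyp8b1, beside 3.78% of all genes. Of 7 pericentral genes, which mark the zone where Cyp7a1 is mainly expressed, 5 correlated positively with Cyp7a1, 4 with Cyp8b1, 6 with Cyp27a1 and 6 with Cyp7b1. The ammonium transporter Rhbg had r = 0.523 with Cyp7a1. With the first component removed, the pericentral counts were 2, 0, 2 and 2. Of 5 genes of the opposite, periportal zone, 3 were positive with Cyp7a1, 1 with Cyp8b1, 3 with Cyp27a1 and 2 with Cyp7b1. With the first component removed, the periportal counts were 0, 0, 3 and 0. In that setting 1 was negative with each alternative enzyme, beside 1231 of 12314 genes for Cyp27a1 and 323 for Cyp7b1. Cholesterol synthesis genes gave no common direction. Of 10 measured, 2 were positive and 1 negative with Cyp7a1, and 1 positive and 2 negative with Cyp8b1. With Cyp27a1 2 were positive and 2 negative. With Cyp7b1 1 was positive and 4 negative, including squalene epoxidase Sqle (r = -0.514). Negative calls covered 11.1%, 14.3%, 19.9% and 22.7% of all genes. After removal of the first component, the positive counts were 2, 0, 2 and 1, and the negative counts 1, 1, 0 and 1. Negative calls over all genes were then 2.53% and 3.78% for the classical enzymes, and 1231 and 323 of 12314 for the alternative ones. The sterol exporter Abcg1 was negative with all 4 enzymes, from r = -0.309 with Cyp7a1 to -0.532 with Cyp7b1, where its slope changed sign with the first component removed (0.075 log2 per SD).

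Markers of several other cell types correlated mostly negatively with the enzymes, although not all lists did. Of 7 stellate and fibroblast markers, 6 correlated negatively with Cyp7a1, 5 with Cyp8b1, 5 with Cyp27a1 and 6 with Cyp7b1, beside 11.1%, 14.3%, 19.9% and 22.7% of all genes. With Cyp8b1, 1 stellate marker was positive. Positive calls covered 15.7%, 15.4%, 24.8% and 24.8% of all genes. Of 6 cholangiocyte markers, 3 were negative with Cyp7a1, 5 with Cyp8b1 and all 6 with each alternative enzyme. On the 86 other arrays, 5 were negative with Cyp7a1, 2 with Cyp8b1 (5 at an unadjusted p under 0.05) and 6 with each alternative enzyme. Of 8 macrophage markers 5 were negative with each enzyme, and 1 was positive with Cyp27a1 and 1 with Cyp7b1. On the 86 other arrays alone, 3 were negative with Cyp7a1, 3 with Cyp8b1, 1 with Cyp27a1 and 5 with Cyp7b1, beside 13.9%, 11.1%, 19.8% and 23.5% of all genes. With the first component removed, 4 were called positively with Cyp27a1 and 2 with Cyp7b1, beside 14% and 3.95% of all genes. None was then negative with any enzyme at an unadjusted p under 0.05. Of 5 neutrophil markers 2 were negative with Cyp7a1, 3 with Cyp8b1 and all 5 with each alternative enzyme. On the 86 other arrays none was called with Cyp7a1 or Cyp8b1 (1 and 0 negative at an unadjusted p under 0.05). All 5 were still negative there with each alternative enzyme. With the first component removed, no stellate, cholangiocyte or neutrophil marker was called negatively with any enzyme. At an unadjusted p under 0.05, 1 stellate marker was negative with Cyp8b1. Called positively were 2 stellate markers with Cyp27a1 and 1 with Cyp7b1. Of 5 skeletal muscle markers 3 were positive with Cyp8b1 and 1 with Cyp7b1, and 1 was negative with Cyp27a1. Of 5 endothelial markers 2 were positive with Cyp27a1 and 1 was negative with Cyp7b1. Of 6 markers of T and NK cells 3 were negative with Cyp27a1, and of 4 markers of B and plasma cells 1 was positive with Cyp8b1 and 1 with Cyp7b1. Of 7 hepatocyte markers, 2 correlated positively and 2 negatively with Cyp7a1, and 3 positively with each other enzyme. After removal of the first component, 2 were negative with Cyp7a1 and 3 with Cyp27a1, beside 2.53% and 1231 of 12314 genes. In that setting 1 was positive with Cyp7b1, beside 3.95% of all genes, and none was called with Cyp8b1. The part of these cell types in the relations between the enzymes and other genes was not tested. In whole liver fewer cells of a type and less RNA per cell cannot be told apart. The values are ratios, so whether a marker is absent cannot be read from them.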

How the data were processed

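Liver RNA of 107 female F2 mice was measured on 2-colour arrays, each against a common pool, per the labels. The deposited values were taken as log10 ratios of mouse over pool. The labels give neither base nor direction. Base 10 was taken because values stop exactly at -2 and 2, and the direction is likely, from the order in the labels. No label states the dyes, normalization or background handling. If the base were e, the 5th to 95th percentile ranges would be 3.52-fold for Cyp7a1, 2.07-fold for Cyp8b1, 1.41-fold for Cyp27a1 and 1.94-fold for Cyp7b1, and correlations would not change. If the direction were reversed, all log ratios would change sign and correlations would not.

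Values were converted to log2. Arrays of mice 24, 55 and 91 held no usable values and were left out. Values at the limits (1.07% of all) were treated as not measured, and 1.69% were missing. The SD over probes was 0.43 log2 for the median array (0.24 to 1.41). The filter of values on at least 90% of arrays kept 20633 of 23536 probes, and the 13238 of these with 1 gene symbol gave 12315 genes, averaging the probes of a gene. Each mouse had 1 array, so technical noise and differences between mice cannot be told apart, and p-values cover both together.

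Each gene was regressed on each enzyme, scaled to an SD of 1, with limma 3.58.1 in R 4.3.3 (lmFit and eBayes), with Benjamini-Hochberg adjustment over all genes and a threshold of 0.05. The contrast of pathways came from 1 fit with all 4 enzymes. The fit was tested on simulated data. Pearson and Spearman correlations had two-sided permutation tests of 100000 resamples with scipy 1.17.1. Of 990 relations in that family, the smallest permutation p of 1e-05 had a Benjamini-Hochberg adjusted value of 4.38e-05 for r and 5.79e-05 for rho. The 6 pairs of enzymes had adjusted p-values of 0.000245 or less for r, except Cyp8b1 with Cyp27a1 at 0.0804.

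The enzymes, gene lists and tests were chosen with earlier results of these data known. Of 262 list entries, a measured gene was found for 198 by symbol and for 1 through a synonym, and 63 had none. The text names the 4 enzymes, the 6 genes of highest and 4 of lowest r called for each, genes of the later enzyme, transporter and regulator lists, genes of largest absolute r in other lists, and the 5 most significant genes in each direction of the contrast. Promoter windows came from RefSeq tables, where Cyp8b1, Cyp27a1 and Nr0b2 matched. The alternatives tried are given in the closing section.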

Additional observations from a re-analysis of the deposited data

How the results depend on the processing

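Over the alternatives, the correlations between enzymes kept their sign where they were called, but some lost the threshold of the limma fit. On the limit-rich arrays alone (15 or 18 mice) r was 0.402 for Cyp7a1 with Cyp8b1, 0.469 for Cyp7a1 with Cyp27a1, 0.0413 for Cyp7a1 with Cyp7b1, 0.376 for Cyp8b1 with Cyp7b1 and 0.496 for Cyp27a1 with Cyp7b1, none past the threshold with so few mice. With the first principal component removed, r was 0.216 for Cyp7a1 with Cyp7b1, 0.132 for Cyp8b1 with Cyp7b1 and 0.0475 for Cyp27a1 with Cyp7b1.

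Genes called by limma numbered 3300 for Cyp7a1, 3655 for Cyp8b1, 5498 for Cyp27a1, 5851 for Cyp7b1 and 2904 for the contrast of pathways. On the limit-rich arrays alone they were 1, 0 (2715 at an unadjusted p under 0.05), 1230, 492 and 0 (352 unadjusted). With the first component removed they were 844, 791, 2950, 810 and 1466. With all 4 enzymes together they were 175 for Cyp7a1, 844 for Cyp8b1 and 3468 for Cyp27a1. With each array divided by its SD they were 3394 for Cyp27a1 and 1356 for the contrast. The cause was not tested.

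The next values follow each gene only with the enzyme it was named for or had its largest r with (Nr0b2 with all 4). Of these slopes, those that changed sign on the limit-rich arrays alone were Per3 on Cyp7a1 (-0.22), Fgfr4 on Cyp27a1 (-0.023) and Dbp on Cyp7b1 (-0.024). With the first component removed they were, all on Cyp7b1, Abcb4 (-0.035), Abcg1 (0.075), Fads2 (-0.010), Lcn2 (0.0098), Lpl (0.065), Ppara (-0.022), Slc10a1 (-0.076), Slc27a2 (-0.0048) and Tef (-0.0095). For the contrast of pathways on the limit-rich arrays alone they were Fgfr4 (0.0039), Foxa2 (0.0060), Hsd17b4 (0.023), Klb (0.044), Nr1h4 (0.086), Nr5a2 (0.0027), Ppara (0.014) and Rxra (0.016), and with the first component removed Hsd17b4 (0.0043) and Slc27a2 (0.0073). Over all 4 enzymes more did so: of 368 called relations of named genes, 84 had the opposite sign with the first component removed (5 of them called), 44 with all 4 enzymes together and 14 on the limit-rich arrays alone, among them Slco1b2 on Cyp8b1 (-0.071) and Abcb11 on Cyp7b1 (-0.047) with the component removed. None had the opposite sign with the limits kept, without the limit-rich arrays or with limit-rich array as a covariate. None did with arrays scaled or without the 2 extreme mice. Robust variance leaves each slope as it was, so the signs could not change and that setting does not test them. None of the 348 relations among genes measured on every array had the opposite sign either. That filter left the slopes of Nr0b2 and Abcb11 on each enzyme unchanged, so it hardly tests the signs.

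No paired analysis was possible because there was 1 group of mice. Each enzyme had 1 probe, so probes were not compared. Signal over background was not analysed, and values at the limits leave the lowest Cyp7a1 levels unmeasured.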
